A study of Mus musculus with 20 samples.

Results

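The genes described here are the FOXO transcription factors and the muscle atrophy genes they are known to control: Foxo1, Foxo3, Foxo4, the ubiquitin ligase genes Fbxo32 and Trim63, the lysosomal protease gene Ctsl, and the autophagy genes Gabarapl1 and Map1lc3b. They were found as every probe set whose only symbol in the array's annotation was one of these 8 names. That rule took 17 of the 22690 probe sets and 7 of the 8 genes. Trim63 had no such probe set and was not analysed here. Of the 17 probe sets, 13 were bright enough to test, and they covered 6 genes. The single probe set of Foxo4 and 1 probe set each of Foxo1, Foxo3 and Map1lc3b were too dim.

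The cells were C2C12 myotubes, multinucleated muscle cells that this established mouse myoblast line forms when serum is lowered. Per the design text, myoblasts were differentiated for 96 h in 2% horse serum, and the myotubes were then kept for 2 h in 0.5% horse serum with 0, 1, 10, 100 or 1000 µM H2O2, a diffusible oxidant. Each of the 5 doses had 4 Affymetrix Mouse Genome 430A arrays, a chip of short oligonucleotide probe sets, and the group without H2O2 is called untreated. The design text calls the replicates independent but names no separate cultures, so p-values measure the spread between these arrays, which may be technical.

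FOXO factors bind forkhead sites in DNA and are held in the cytoplasm when insulin or IGF-1 signalling activates AKT. In skeletal muscle, when that signal falls, they enter the nucleus and raise a set of atrophy genes, so that protein is broken down by the proteasome and by autophagy. Fbxo32 encodes atrogin-1, the substrate-binding part of an SCF ubiquitin ligase, and Trim63 encodes MuRF1, a RING ligase of the sarcomere. Ctsl encodes cathepsin L. Gabarapl1 and Map1lc3b encode proteins of the ATG8 family, which are joined to lipid on the growing autophagosome membrane. FOXO activity is set largely by phosphorylation and acetylation, which mRNA levels do not show.

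The 250 bases before a transcription start were read from RefSeq for 6 of the 8 genes on build GRCm38.p6. They were searched on both strands for the forkhead forms GTAAACA and ATAAACA. The Ctsl window, chr13:64370521-64370770 on the minus strand, lies inside the span of that gene, 64361890 to 64370772. It is therefore not sequence upstream of the whole gene. Gabarapl1 and Trim63 were the 2 of 6 that held a form, and both are printed 5′ to 3′ in the direction of the gene with the match in capitals. The window of Foxo1, the factor with the clearest dose pattern below, is shown beside them and has no match. The windows lie at chr3:52268087-52268336 for Foxo1, chr6:129532942-129533191 for Gabarapl1 and chr4:134314870-134315119 for Trim63, all on the plus strand.
Foxo1: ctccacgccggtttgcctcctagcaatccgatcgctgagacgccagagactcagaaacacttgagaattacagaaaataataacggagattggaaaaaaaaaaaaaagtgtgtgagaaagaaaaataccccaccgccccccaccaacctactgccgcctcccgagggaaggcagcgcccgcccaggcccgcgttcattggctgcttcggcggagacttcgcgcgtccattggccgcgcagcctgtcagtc
Gabarapl1: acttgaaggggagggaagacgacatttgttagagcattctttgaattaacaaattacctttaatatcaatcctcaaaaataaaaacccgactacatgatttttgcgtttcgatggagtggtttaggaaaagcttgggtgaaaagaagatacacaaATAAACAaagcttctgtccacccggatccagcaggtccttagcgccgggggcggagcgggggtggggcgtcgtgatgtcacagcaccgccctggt
Trim63: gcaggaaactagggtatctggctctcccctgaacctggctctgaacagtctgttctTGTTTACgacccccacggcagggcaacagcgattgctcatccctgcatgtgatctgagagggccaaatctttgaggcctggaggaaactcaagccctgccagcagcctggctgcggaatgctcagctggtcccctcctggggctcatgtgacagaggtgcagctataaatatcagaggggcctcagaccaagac
The match of Gabarapl1 is ATAAACA and ends 89 bases before the start. The match of Trim63 lies on the other strand, where it reads GTAAACA, and it ends 188 bases before the start. Over 32851 promoter windows of the same length, 3.17% held GTAAACA, 4.16% held ATAAACA and 7.1% held either. The longer antioxidant response motif TGACNNNGC was in 10.2% of all windows and in 0 of these 6. A match describes letters in a window and is not evidence of binding.

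Signals are the deposited linear intensities after each array was brought to the same trimmed mean, and they have no absolute unit. Differences are on the log2 scale with their standard error (SE) from limma over all 20 arrays, and a difference is called, and worded as a rise or fall, at a Benjamini-Hochberg adjusted p under 0.05 over the 14379 tested probe sets. A gene with several probe sets is counted by its brightest. The arrays called replicate 1 stood apart from the rest: the first principal component, 28.2% of the variance, placed these 5 arrays at 27.62 or above and the other 15 at -6.225 or below. Each dose had 1 of them, and results that rest on them are given with replicates 2 to 4 alone as well. The titles give no number to 1 array at 10 µM, and it is called replicate 1 here.

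Foxo1 mRNA was near its untreated level at 1 and 10 µM, higher at 100 µM on 1 probe set, and lower at 1000 µM than at 100 µM on all 3 tested probe sets. Fbxo32 had its highest group means at 100 µM, without a call there. At 1000 µM it fell below untreated and 100 µM on both probe sets. The calls against untreated were lost on both with quantile normalization and with only the 2 groups in the fit. On the brighter probe set the fall from 100 µM kept its call in every alternative. Counted by brightest probe set, 2 of the 6 genes, Foxo1 and Fbxo32, fell at 1000 µM against untreated and against 100 µM. Foxo3, Ctsl, Gabarapl1 and Map1lc3b had no called difference at any dose.

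Foxo1, a main FOXO factor of fasting and muscle wasting, was measured by 3 probe sets that passed the filter. On probe set 1416981_at the untreated arrays read 227, 254, 206 and 246, in the order of replicates 1 to 4. At 1 µM they read 238, 293, 226 and 266, and at 10 µM 255, 250, 271 and 254. At 100 µM the signals were 418, 369, 350 and 340, and at 1000 µM 273, 171, 162 and 218. All 4 arrays at 100 µM were above every array of the other 4 groups, and the 1000 µM arrays overlapped the untreated ones. Against untreated alone, 3.79% of all tested probe sets lay wholly above at 100 µM.

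This probe set rose at 100 µM by 0.66 ± 0.14 (log2, SE, n = 4 per group; 95% interval 0.37 to 0.95; adjusted p = 0.0164), a fold of 1.58. With replicates 2 to 4 alone the rise was 0.59 (adjusted p = 0.0175). The call was lost, with the direction kept, without untreated replicate 3 (adjusted p = 0.0679), 100 µM replicate 1 (0.0726) or 100 µM replicate 2 (0.0507). At 1000 µM the difference from untreated was -0.21 ± 0.14 and was not called (adjusted p = 0.373). Against 100 µM the signal fell by 0.87 ± 0.14 on the log2 scale (adjusted p = 0.000788).

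The brightest Foxo1 probe set, 1416982_at, gave 813, 556, 513 and 496 on the untreated arrays. Its signals were 492 to 566 at 1 µM and 493 to 601 at 10 µM. At 100 µM they were 676, 597, 680 and 610, and at 1000 µM 331, 310, 364 and 317. Every 1000 µM array lay below every other array, and untreated replicate 1 was the highest of all. Against untreated alone, 13.8% of all tested probe sets lay wholly below at 1000 µM.

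At 100 µM this probe set did not pass the test, with a difference from untreated of 0.14 ± 0.12 (95% interval -0.12 to 0.39; adjusted p = 0.761). At 1000 µM it fell by 0.82 ± 0.12 on the log2 scale (95% interval -1.08 to -0.56; adjusted p = 2e-04), to 56.7% of untreated. The fall was 0.66 with replicates 2 to 4 alone (a log2 difference of -0.66, adjusted p = 0.000188). Against 100 µM it fell by 0.95 ± 0.12 on the log2 scale (adjusted p = 9.21e-05).

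The remaining tested Foxo1 probe set, 1416983_s_at, ran from 435 to 600 untreated, 452 to 610 at 1 µM and 483 to 567 at 10 µM. It read 655, 624, 551 and 667 at 100 µM and 462, 399, 378 and 362 at 1000 µM. Its difference at 100 µM was 0.29 ± 0.11 (adjusted p = 0.292). Its fall at 1000 µM, by 0.36 ± 0.11 on the log2 scale (adjusted p = 0.0434), was lost under 4 other settings, among them centring on the median (adjusted p = 0.173), and without any 1 of 6 of the 8 arrays compared. Against 100 µM it fell by 0.64 ± 0.11 on the log2 scale (adjusted p = 0.00157).

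The 3 probe sets thus differed in where the change from untreated was called, while on all of them every 1000 µM array was below every 100 µM array. Of all tested probe sets, 10.4% lay wholly below the 100 µM arrays at 1000 µM. That disagreement was tested as a difference between probe sets within arrays and adjusted over 7839 pairs of probe sets of the same gene. Between 1416981_at and 1416982_at it was 0.53 ± 0.18 at 100 µM (adjusted p = 0.767) and 0.61 ± 0.18 at 1000 µM (adjusted p = 0.127). Neither passed, so the probe sets were not shown to differ, nor to be alike.

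**Figure D1:**
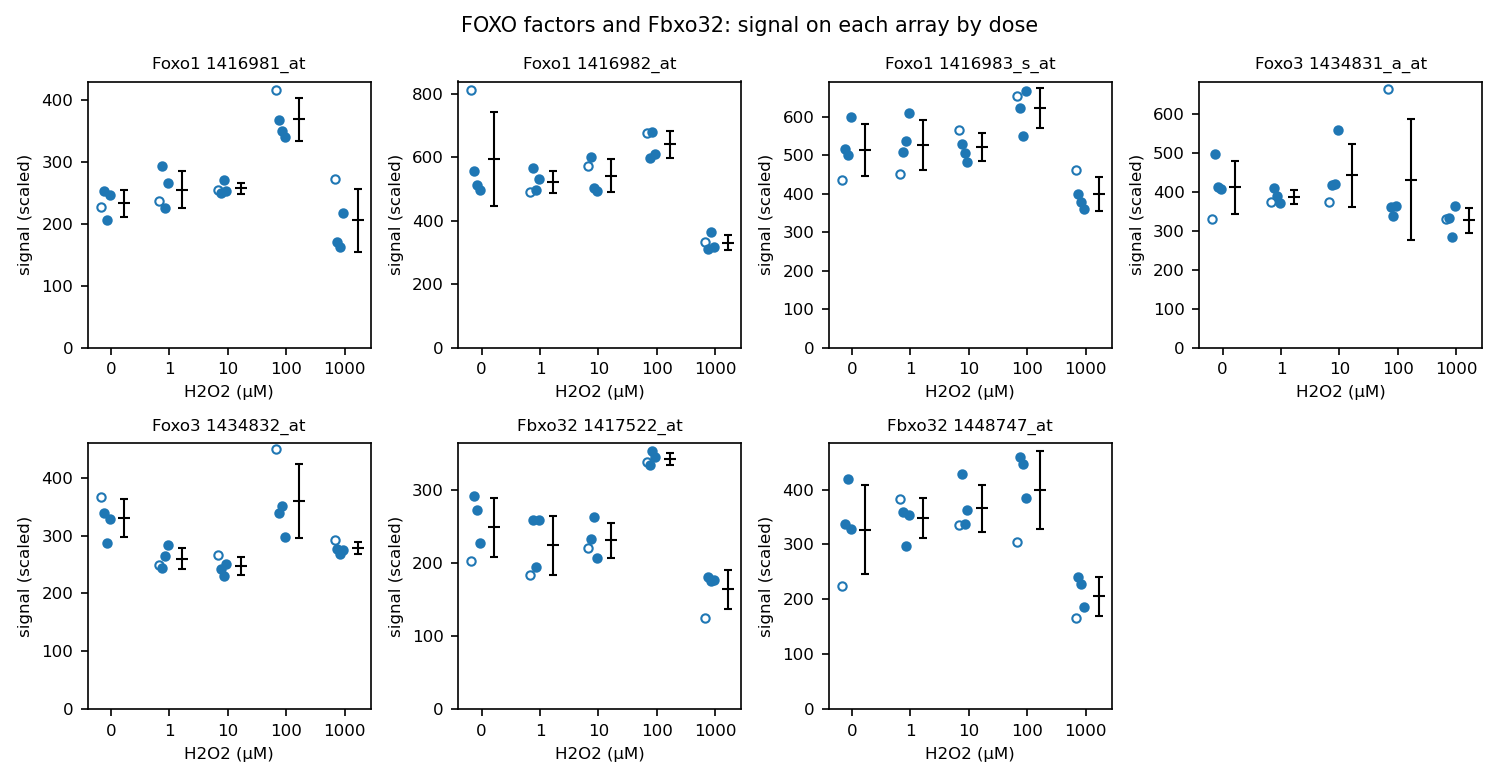
Scaled signal (linear, from 0) of the tested Foxo1, Foxo3 and Fbxo32 probe sets against H2O2 dose in µM. Open circles are the arrays called replicate 1, filled circles replicates 2 to 4, and bars the mean ± SD of 4 arrays. On Foxo1 1416981_at the 100 µM arrays sit between 340 and 418, above all others, and on 1416982_at the 1000 µM arrays sit between 310 and 364, below all others.

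Foxo3, a FOXO factor that drives both atrogin-1 and autophagy genes in muscle, was measured by 2 tested probe sets. The brighter, 1434831_a_at, gave 330, 497, 413 and 407 untreated and 663, 360, 337 and 363 at 100 µM. Its arrays at 1000 µM read 330, 332, 284 and 362. Replicate 1 at 100 µM was far above the other 3 arrays of its dose. The difference from untreated was 0.02 ± 0.17 at 100 µM (95% interval -0.34 to 0.38; adjusted p = 0.983) and -0.31 with replicates 2 to 4 alone (adjusted p = 0.23). At 1000 µM it was -0.32 ± 0.17 (adjusted p = 0.25), and with replicates 2 to 4 alone it passed the test at -0.43 (adjusted p = 0.0207).

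The dimmer Foxo3 probe set, 1434832_at, gave 367, 339, 287 and 328 untreated, 249, 243, 265 and 283 at 1 µM, and 267, 243, 229 and 251 at 10 µM. All arrays at these low doses were below all untreated arrays. It read 449, 339, 352 and 298 at 100 µM and 293, 276, 268 and 274 at 1000 µM. The low-dose differences were -0.34 ± 0.11 at 1 µM (adjusted p = 0.584) and -0.41 ± 0.11 at 10 µM (adjusted p = 0.941), and neither was called. Of all tested probe sets, 2.19% lay wholly below untreated at 1 µM and 2.67% at 10 µM. This probe set passed the F-test over the 5 doses (adjusted p = 0.0133), which the brighter one did not (adjusted p = 0.461). Its difference between 1000 and 100 µM was -0.36 ± 0.11, with no call (adjusted p = 0.0828). The arrays of these doses did not overlap, as for 10.4% of all tested probe sets in that direction.

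Foxo4, the remaining FOXO factor of muscle on the array, had signals from 5.6 to 54 over the 20 arrays on probe set 1422149_at. The filter level, each array's 40th percentile, ran from 77.7 to 106.5, so no array measured Foxo4 above it. Group means ± SD were 15.9 ± 8.92 untreated, 14.6 ± 5.64 at 1 µM, 19.3 ± 12.3 at 10 µM, 30.1 ± 14.6 at 100 µM and 34.5 ± 15.6 at 1000 µM, with overlapping arrays. In a fit without the filter its difference at 1000 µM was not called (adjusted p = 0.279). The dim probe sets of Foxo1, Foxo3 and Map1lc3b likewise had no call in that fit.

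Fbxo32, whose product atrogin-1 marks proteins such as MyoD for the proteasome, was measured by 2 probe sets, and both fell at 1000 µM. On 1417522_at the untreated arrays read 203, 291, 273 and 228. They read 184, 259, 195 and 259 at 1 µM and 221, 233, 263 and 207 at 10 µM. At 100 µM the signals were 339, 335, 353 and 345, and at 1000 µM 124, 180, 175 and 177. The 100 µM arrays were above and the 1000 µM arrays below all others.

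At 100 µM the difference from untreated was 0.48 ± 0.15 (95% interval 0.17 to 0.79), higher in all 16 pairs of arrays, but not called (adjusted p = 0.155). Of all tested probe sets, 3.79% lay wholly above untreated at this dose. With replicates 2 to 4 alone it was 0.39 and not called (adjusted p = 0.144), while it was called with a term for the arrays called replicate 1 (adjusted p = 0.0294), with the replicate number as a block (0.0497) and with array weights (0.0342). At 1000 µM the probe set fell by 0.60 ± 0.15 on the log2 scale (adjusted p = 0.0129), to 65.9% of untreated, and with replicates 2 to 4 alone the difference was -0.57 (adjusted p = 0.0065). Of all tested probe sets, 13.8% lay wholly below untreated there. This call was lost with quantile normalization (adjusted p = 0.102), with only the 2 groups in the fit (0.0531) and without untreated replicate 2 (0.0501). Against 100 µM it fell by 1.08 ± 0.15 on the log2 scale (adjusted p = 0.000142), to 47.4% of the 100 µM level.

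The brighter Fbxo32 probe set, 1448747_at, read 224, 338, 420 and 328 untreated, 298 to 383 at 1 µM and 336 to 428 at 10 µM. It read 305, 459, 447 and 386 at 100 µM and 166, 241, 228 and 187 at 1000 µM. The untreated replicate 1 array fell among the 1000 µM arrays. The 100 and 1000 µM arrays did not overlap, as for 10.4% of all tested probe sets in that direction. Its difference at 100 µM was 0.30 ± 0.17 (95% interval -0.05 to 0.66; adjusted p = 0.55). At 1000 µM it fell by 0.65 ± 0.17 on the log2 scale (adjusted p = 0.0181), and by 0.73 with replicates 2 to 4 alone (a log2 difference of -0.73, adjusted p = 0.00113). The call at 1000 µM was lost with median centring (adjusted p = 0.0606), quantile normalization (0.135), only the 2 groups in the fit (0.065), and without untreated replicate 3 (0.0614), 1000 µM replicate 1 (0.0563) or 1000 µM replicate 4 (0.0533). The fall from 100 to 1000 µM, by 0.96 ± 0.17 on the log2 scale (adjusted p = 0.00206), kept its call in every alternative run.

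Ctsl, the lysosomal protease that rises in many forms of muscle wasting, was among the brightest signals measured here. Its probe set 1451310_a_at read 4296, 6390, 6066 and 5880 untreated, 5089, 6858, 6822 and 6633 at 100 µM, and 5959, 6292, 6833 and 6701 at 1000 µM. The groups overlapped, and replicate 1 was the lowest array in each of these groups. The difference was 0.17 ± 0.12 at 100 µM (95% interval -0.08 to 0.42; adjusted p = 0.662) and 0.20 ± 0.12 at 1000 µM (95% interval -0.05 to 0.45; adjusted p = 0.302). The F-test over the doses was not passed (adjusted p = 0.759).

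Gabarapl1, an ATG8 family member known as a FOXO target in muscle, had its highest group means at 100 µM without a call. Probe set 1416419_s_at read 1071, 1344, 1267 and 1349 untreated, 1075, 1525, 1288 and 1158 at 1 µM, and 1019, 1270, 1460 and 1311 at 10 µM. At 100 µM it read 1390, 1746, 1672 and 1827, and at 1000 µM 1105, 1389, 1628 and 1568. Every 100 µM array was above every untreated array, as for 3.79% of all tested probe sets, and replicate 1 was the lowest at each of those doses.

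The difference at 100 µM was 0.40 ± 0.14 (95% interval 0.11 to 0.68), a fold of 1.32, and was not called (adjusted p = 0.213). With replicates 2 to 4 alone it was 0.41 and called (adjusted p = 0.0205), and with a term for the arrays called replicate 1 the adjusted p was 0.00373. At 1000 µM the difference was 0.17 ± 0.14 (adjusted p = 0.475). The other probe set, 1416418_at, read 541, 569, 533 and 719 untreated, 625, 793, 920 and 881 at 100 µM, and 544, 824, 821 and 787 at 1000 µM. Its differences from untreated were 0.44 ± 0.16 at 100 µM (adjusted p = 0.239) and 0.32 ± 0.16 at 1000 µM (adjusted p = 0.196). With replicates 2 to 4 alone both were called, at 0.52 (adjusted p = 0.0441) and 0.43 (adjusted p = 0.0314). Between 1000 and 100 µM neither probe set differed by more than its error allowed to be called, at -0.12 ± 0.16 (adjusted p = 0.767) and -0.23 ± 0.14 (adjusted p = 0.408).

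Map1lc3b encodes LC3B, the usual marker protein of autophagosomes, and none of its 3 tested probe sets was called at any dose. The brightest, 1415930_a_at, read 1760, 3032, 2935 and 2812 untreated, 1842, 2987, 3389 and 2867 at 100 µM, and 2267, 3734, 3388 and 3597 at 1000 µM. Replicate 1 was the lowest array of each group. The difference at 1000 µM was 0.31 ± 0.19 (95% interval -0.09 to 0.71; adjusted p = 0.335), and with replicates 2 to 4 alone it was 0.29 and called (adjusted p = 0.0115). At 100 µM the difference was 0.07 ± 0.19 (adjusted p = 0.936).

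On 1415928_a_at the 4 arrays at 1 µM, from 1622 to 1897, all lay below the untreated ones, from 1980 to 2277, with a difference of -0.27 ± 0.10 (adjusted p = 0.641), beside 2.19% of all tested probe sets without overlap in that direction. At 10 µM its arrays, from 1786 to 1973, again lay below the untreated ones, with a difference of -0.15 ± 0.10 (adjusted p = 0.963), beside 2.67% of all tested. Probe set 1415929_at differed from untreated by 0.04 to 0.14 on the log2 scale over the 4 doses, with adjusted p from 0.54 to 0.992.

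**Figure D2:**
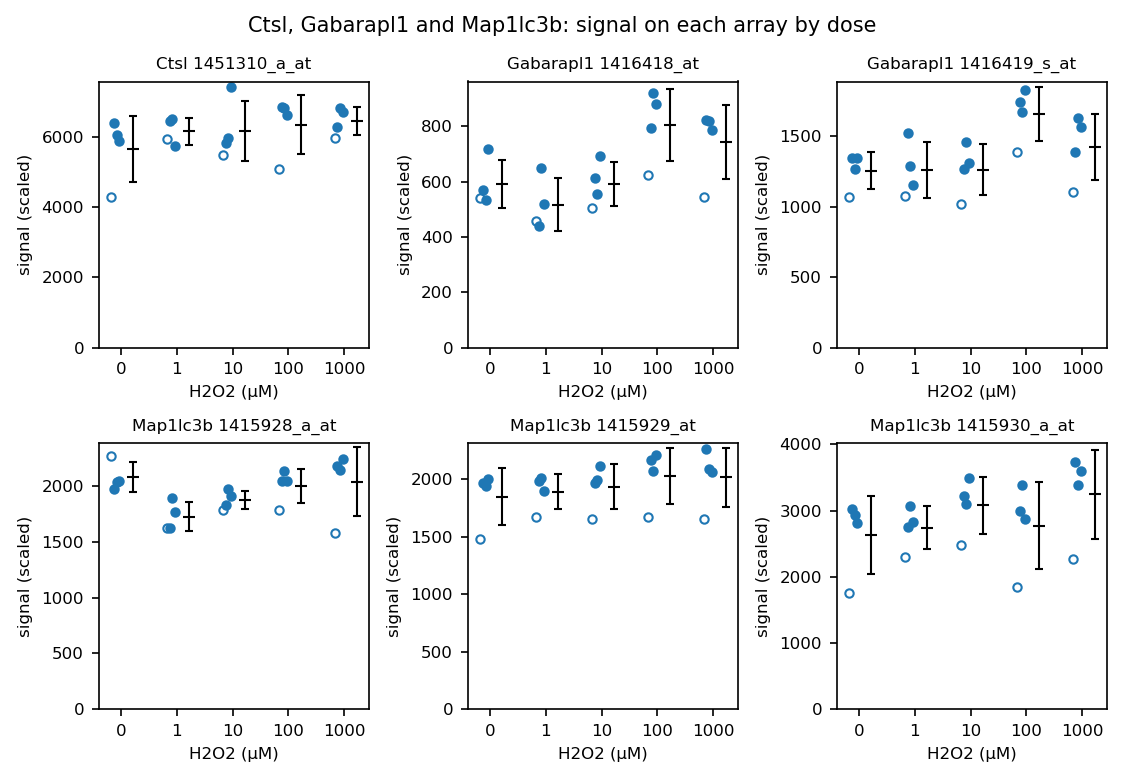
Scaled signal (linear, from 0) of the Ctsl, Gabarapl1 and Map1lc3b probe sets against H2O2 dose in µM, with the arrays called replicate 1 as open circles, replicates 2 to 4 as filled circles and bars for the mean ± SD of 4 arrays. The open circles are the lowest points of most groups, and on Gabarapl1 1416419_s_at the 100 µM arrays, from 1390 to 1827, lie above the untreated ones, from 1071 to 1349.

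Set against all genes, the counts were as follows. At 1 µM 0 of the 6 genes were called in limma, 0 had an unadjusted p under 0.05, and 0% of all 8159 tested genes were called. At 10 µM 0 of the 6 were called, 0 had an unadjusted p under 0.05, and 0.0123% of all genes were called. At 100 µM 0 of the 6 were called, against 1.4% of all genes called. Of the 6, 1 had an unadjusted p under 0.05 there. No share of all genes is given for that limit, so this count cannot show an excess. By probe set, 1 of 13 was called higher at 100 µM, where 0.862% of all tested probe sets were. At 1000 µM 2 of the 6 genes and 4 of the 13 probe sets fell, against 8.05% of genes and 8.48% of probe sets called lower. Against 100 µM, 2 of the 6 genes and 5 of the 13 probe sets were lower at 1000 µM, where 3.62% of genes and 3.6% of probe sets were. The F-test over the doses called 2 of the 6 genes, again Foxo1 and Fbxo32, and 7.81% of all genes. By probe set it called 7 of the 13, those of Foxo1 and Fbxo32, 1 of Foxo3 and 1 of Gabarapl1, and 8.01% of all tested. The Gabarapl1 call, on 1416418_at (adjusted p = 0.0452), was lost with quantile normalization (0.0527), no filter (0.0625), no intensity trend in limma's variance (0.065) and without any 1 of 15 of the 20 arrays (adjusted p up to 0.104).

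Foxo1 and Fbxo32, by brightest probe set, were above untreated at 100 µM and called lower at 1000 µM than untreated and 100 µM. Above untreated here means a log2 difference above 0, without a call. This order was shown by 137 tested probe sets, 0.953% of them. It was chosen from the values of these genes, so the share describes the order and does not test it. Of their tested probe sets only Foxo1 1416981_at did not show it, with no call at 1000 µM against untreated (adjusted p = 0.373). The comparisons share their untreated or 100 µM arrays, so the calls in this order are not separate pieces of evidence. Under the rule in the design text, which asks that all 16 crossed pairs of arrays change the same way with a mean change above 1.75, Foxo1 1416982_at was the only tested probe set of these genes to pass at 1000 µM against untreated (1.81), where 1.59% of all tested probe sets passed in that direction. That rule was applied here to signals in place of the software's difference calls. At 100 µM none of the 13 passed, against 0.675% of all tested in either direction, and the mean change of Foxo1 1416981_at was 1.59. Between 1000 and 100 µM Foxo1 1416981_at (1.87) and 1416982_at (1.95) and Fbxo32 1417522_at (2.14) and 1448747_at (1.99) passed, where 1.11% of all tested passed in that direction.

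**Figure D3:**
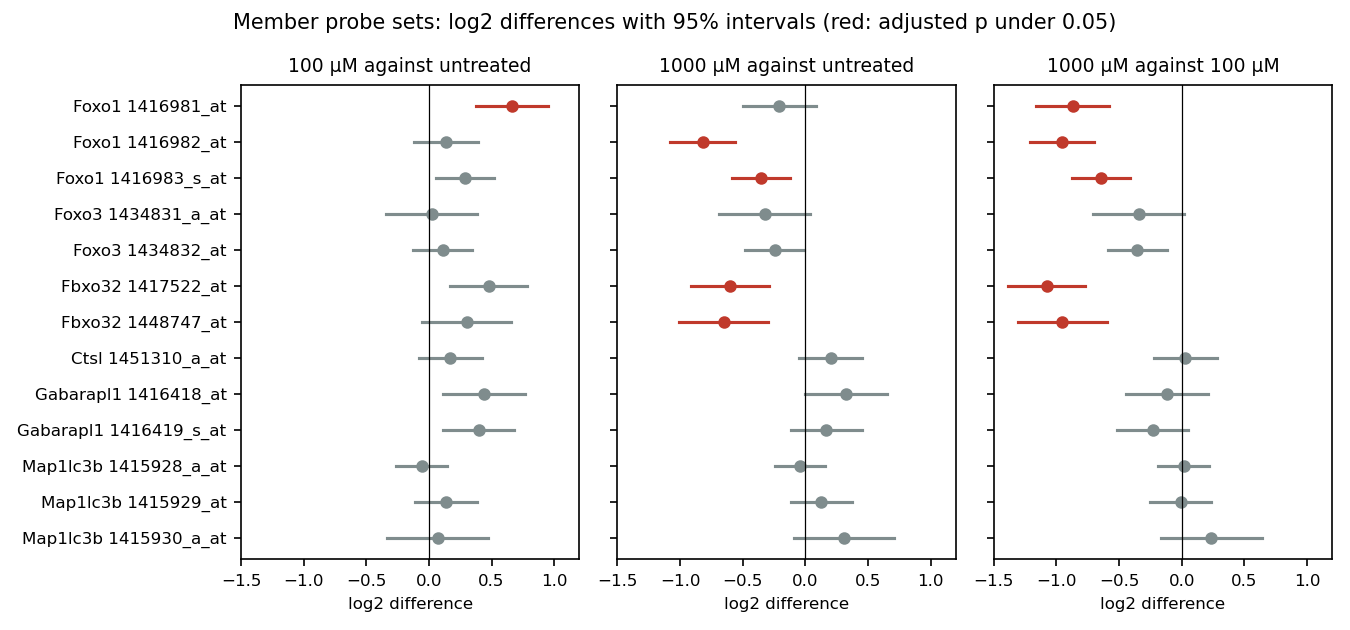
Log2 difference of each tested probe set, with 95% interval from limma, at 100 µM against untreated, 1000 µM against untreated and 1000 against 100 µM. Red marks an adjusted p under 0.05: 1 probe set at 100 µM, 4 at 1000 µM and 5 between the top doses, all of Foxo1 or Fbxo32.

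At the top dose 8.05% of all tested genes were called lower than untreated and 2.64% higher. How much of this comes from the scaling of the arrays was not tested. The median log2 signal of an array over all tested probe sets, averaged within groups, was shifted at 1000 µM. It differed by -0.13 from untreated and by -0.08 from 100 µM, so the falls of Foxo1 and Fbxo32 are relative to a shifted centre. The median log2 difference of all tested genes was -0.05 and -0.03 in these comparisons. After each array was centred on its own median signal, Foxo1 1416982_at and Fbxo32 1417522_at were still called at 1000 µM against untreated. Foxo1 1416983_s_at (adjusted p = 0.173) and Fbxo32 1448747_at (0.0606), the probe set by which Fbxo32 is counted, were not.

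Of all 8159 tested genes, 0.993% were called higher and 0.404% lower at 100 µM, and 2.64% higher and 8.05% lower at 1000 µM, and the counts of the lists that follow stand beside these shares. The genes that set FOXO activity were read from a list of AKT pathway and FOXO regulators. Of 26 tested, 0 rose and 1 fell at 100 µM, and 3 rose and 6 fell at 1000 µM. The median log2 difference at 1000 µM was -0.15, beside -0.05 over all tested genes. Irs1, the docking protein of the insulin and IGF-1 receptors, fell at 1000 µM by 0.79 on the log2 scale (adjusted p = 5.68e-05). Its fall at 100 µM, by 0.46 ± 0.11 (adjusted p = 0.0295), was lost with median centring (0.0894), with only the 2 groups in the fit (0.0528) and without any 1 of 7 of the 8 arrays compared. Igf1r, the IGF-1 receptor, fell at 1000 µM by 0.47 ± 0.10 on the log2 scale (adjusted p = 0.00351), a call lost with quantile normalization (0.0628). Sirt1, a deacetylase of FOXO proteins, fell at 1000 µM by 0.52 ± 0.10 on the log2 scale (adjusted p = 0.00281). Skp2, a ligase subunit that targets FOXO1, fell there by 1.25 ± 0.21 on the log2 scale (adjusted p = 0.000623).

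Known FOXO target genes outside the 8 split by gene. Of 24 tested, 6 rose and 1 fell at 100 µM, where 0.993% of all genes were higher and 0.404% lower, and 4 rose and 3 fell at 1000 µM, where 2.64% and 8.05% were. The list had medians of 0.07 at both doses beside -0.02 and -0.05 over all tested genes. Pdk4, the kinase that shuts off pyruvate dehydrogenase in fasted muscle, rose at 100 µM by 0.72 ± 0.10 (adjusted p = 0.000116). At 1000 µM Pdk4 was at 0.07 against untreated (adjusted p = 0.687), having fallen by 0.65 on the log2 scale from 100 µM (adjusted p = 0.000311). Bbc3, which encodes the pro-apoptotic protein PUMA, rose by 1.09 ± 0.14 at 100 µM (adjusted p = 7.15e-05) and by 0.73 at 1000 µM (adjusted p = 0.00184). Plk2, a stress-induced kinase, rose by 0.93 ± 0.09 at 100 µM (adjusted p = 1.9e-06) and by 1.07 at 1000 µM (adjusted p = 1.42e-07). Bbc3 and Plk2 are also targets of p53.

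The genes of this list that fell included Ccng2, a cyclin gene linked to cell cycle exit. It fell at 100 µM by 0.39 ± 0.08 on the log2 scale (adjusted p = 0.0101), a call lost with only the 2 groups in the fit (0.0784), and at 1000 µM by 0.50 (a log2 difference of -0.50, adjusted p = 0.000265). The other tested probe set of Ccng2 was not called lower at either dose. Rbl2, the pocket protein p130, fell at 1000 µM by 0.49 ± 0.09 on the log2 scale (adjusted p = 0.000739), and its other tested probe set was not called lower there.

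Of 33 other autophagy genes tested, 1 rose and 0 fell at 100 µM, and 3 rose and 2 fell at 1000 µM, beside 2.64% and 8.05% of all genes there. Trp53inp1, a p53 target whose product binds ATG8 proteins, rose at 100 µM by 1.69 ± 0.13 (adjusted p = 3.75e-08) and at 1000 µM by 0.93 (adjusted p = 5.27e-05). Its other tested probe set was called higher than untreated at 100 µM but not at 1000 µM. Rb1cc1, a scaffold of the ULK1 kinase complex, fell at 1000 µM by 0.55 ± 0.10 on the log2 scale (adjusted p = 0.000755). Ulk2, a kinase that starts autophagy, fell there by 0.41 ± 0.10 on the log2 scale (adjusted p = 0.00951), a call lost with median centring (0.0556). The 2 other tested probe sets of Ulk2 were not called lower there. Bnip3, a mitophagy receptor that the FOXO target list also holds, rose at 1000 µM by 0.46 ± 0.12 (adjusted p = 0.0171). The Bnip3 call was lost with only the 2 groups in the fit (0.0562) and without untreated replicate 2 (0.0598), 1000 µM replicate 3 (0.0635) or 1000 µM replicate 4 (0.0616). The other ATG8 genes Gabarap, Gabarapl2 and Map1lc3a were not called.

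Cathepsin and other lysosome genes gave 0 calls among 22 tested at either dose. Lamp1, a lysosomal membrane protein, was at 0.19 ± 0.08 (adjusted p = 0.136) and Npc2, a lysosomal cholesterol carrier, at 0.31 ± 0.15 (adjusted p = 0.183) at 1000 µM. Npc2 was called higher with the replicate block (0.0226), array weights (0.0444) and the term for the arrays called replicate 1 (0.014), and Lamp1 with median centring (0.0315), array weights (0.0385) and that term (0.0343). Among 24 other ubiquitin system genes of atrophy, 0 were called at 100 µM and 1 fell at 1000 µM. That gene was Fbxo21, an F-box ligase gene of wasting muscle, which fell by 0.43 ± 0.12 on the log2 scale (adjusted p = 0.021). Its call was lost with median centring (0.1), quantile normalization (0.212), and without untreated replicate 1 (0.0544) or 1000 µM replicate 2 (0.0645). The other tested probe set of Fbxo21 was not called lower.

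Genes of the MuRF family and of titin-associated proteins stand nearest to Trim63, and 0 of 8 tested were called at either dose. Ankrd1, a stress-responsive protein bound to titin, was at -0.05 ± 0.07 at 1000 µM (adjusted p = 0.725). With quantile normalization it was called lower, at -0.23 (adjusted p = 0.0384). Ttn, the giant sarcomeric spring protein, was at 0.54 ± 0.24 at 1000 µM (adjusted p = 0.153), and it was called with replicates 2 to 4 alone (adjusted p = 0.000115). Of 18 reported substrates of atrogin-1 and MuRF1, 1 fell at 100 µM and 2 fell at 1000 µM. Myod1, the muscle determination factor, fell at 100 µM by 0.71 ± 0.10 on the log2 scale (adjusted p = 0.000371) and at 1000 µM by 0.51 (a log2 difference of -0.51, adjusted p = 0.00344). Myh4, a fast myosin heavy chain, fell at 1000 µM by 0.66 ± 0.21 on the log2 scale (adjusted p = 0.0434), a call lost under 5 other settings and without any 1 of 6 of the 8 arrays compared. These are mRNA levels and say nothing of ubiquitylation of the proteins.

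Upstream atrophy signals gave 0 calls among 17 tested at 100 µM, and 3 rose and 1 fell at 1000 µM. Cebpd, a stress-induced transcription factor, rose by 0.80 ± 0.17 (adjusted p = 0.00483), and its other tested probe set was not called higher. Acvr2a, a receptor of myostatin and activin, fell by 0.59 ± 0.12 on the log2 scale (adjusted p = 0.00385), and its other tested probe set was not called lower. Il6, a cytokine gene, rose by 1.31 ± 0.37 (adjusted p = 0.0289) from signals above the filter level on only 3 of the 4 untreated arrays. The Il6 call was lost without untreated replicate 1 (0.0892) or 1000 µM replicate 2 (0.089), 3 (0.073) or 4 (0.071), and with only the 2 groups in the fit (0.0869). Smad7, an inhibitor of TGF-beta and activin signalling, rose by 0.46 ± 0.14 (adjusted p = 0.0353), and its call was lost with no filter (0.0546), with only the 2 groups in the fit (0.0893) and without any 1 of 6 of the 8 arrays compared.

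**Figure D4:**
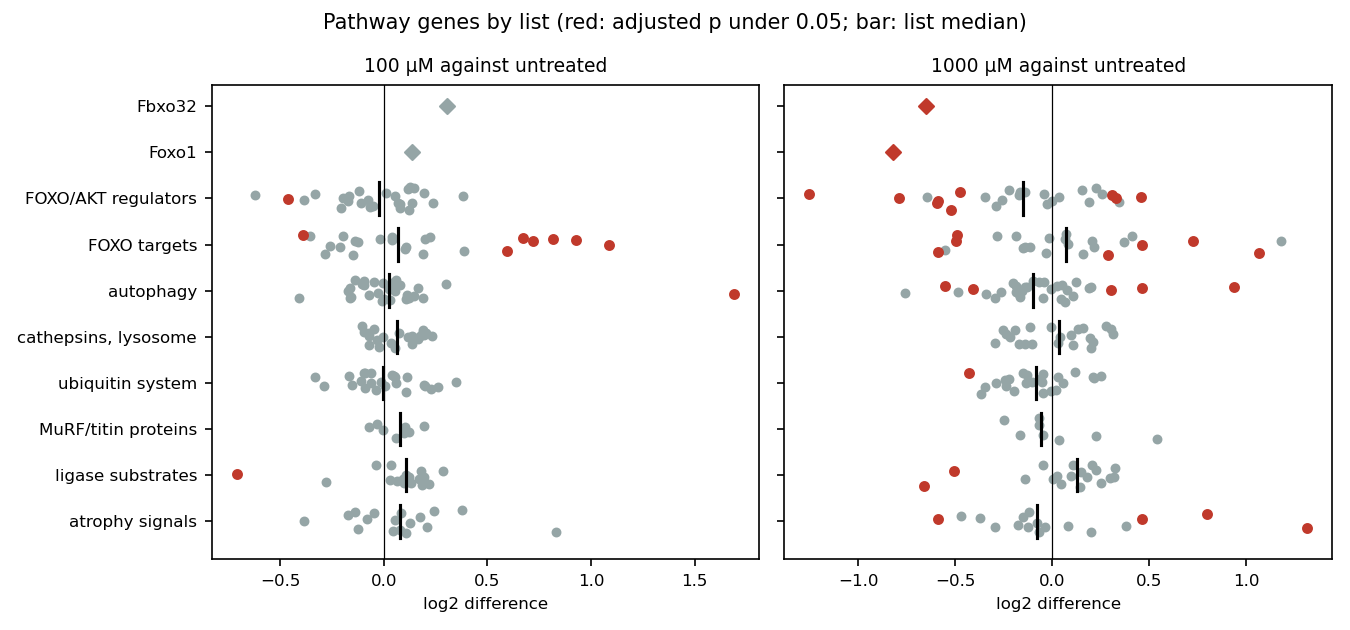
Log2 difference of each tested gene of the 8 lists at 100 and 1000 µM against untreated. Red marks an adjusted p under 0.05, and bars mark the list medians. Diamonds in rows of their own are Foxo1 and Fbxo32, each by its brightest probe set. The FOXO target list has 6 genes called higher and 1 called lower at 100 µM. The list of FOXO and AKT regulators has 3 called higher and 6 called lower at 1000 µM.

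By likeness of the 5 group means of log2 signal, over the tested genes outside the 8, those closest to Foxo1 were Ets1 (Pearson r = 0.9994), Kmt5b (0.9984) and Crkl (0.9981). Those closest to Fbxo32 were E430018J23Rik (0.9940), Nploc4 (0.9939) and Sh3bgr (0.9935). Foxo1 and Fbxo32 gave 0.949 with each other. Foxo3, by its brighter probe set 1434831_a_at, gave 0.901 with Foxo1 and 0.918 with Fbxo32. That probe set had no call over all arrays, and its 100 µM mean includes the outlying replicate 1 array. Foxo1 and Gabarapl1 gave 0.095, and Foxo1 and Map1lc3b -0.772. With 5 points and 8159 genes to choose from, such values describe these group means and carry no test.

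Markers of differentiated myotubes were present throughout: all 14 annotated of 15 listed were above the filter level in every group. Their summed signal was 78460 to 92760 untreated, 89690 to 102400 at 100 µM and 96220 to 101000 at 1000 µM. Those of cycling myoblasts, 6 of 6, summed to 7044 to 8008 untreated, 6657 to 7170 at 100 µM and 7428 to 8195 at 1000 µM. Within these lists Tnnt3, a fast troponin, rose at 1000 µM by 0.33 on the log2 scale (adjusted p = 0.034) and the mitotic regulator gene Birc5 by 0.34 (adjusted p = 0.00823). The proliferation marker Mki67 fell at 1000 µM by 0.50 on the log2 scale (adjusted p = 0.00268), and the mitotic kinase gene Plk1 fell at 100 µM by 0.44 (adjusted p = 0.0202). Of 7 markers of quiescent reserve or satellite cells, 5 were above the filter level, and Pax7 and Calcr were not. All 7 together summed to 2907 to 3110 untreated, 2522 to 2878 at 1 µM and 2743 to 3014 at 10 µM. At 100 µM the sums were 2260 to 2559 and at 1000 µM 2575 to 2603. Both top doses and 1 µM thus lay below untreated, while 10 µM overlapped it. How often sums of other genes separate in this way was not computed. Among the 7 markers Spry1, an inhibitor of receptor tyrosine kinase signalling, fell by 0.97 on the log2 scale at 100 µM (adjusted p = 7.46e-06). It fell by 0.86 at 1000 µM (adjusted p = 1.36e-05), and no other was called. Its mean signal was 1001 untreated, 514.4 at 100 µM and 551.7 at 1000 µM. The lower sums at the top doses thus came largely from this 1 gene. Of the tested others, Cd34 and Sdc4 were slightly higher at both top doses, Myf5 was lower, and Vcam1 was lower at 100 µM only. Fibroblast markers summed to 13230 to 23510 untreated and 16420 to 23790 at 1000 µM, adipocyte markers were above the filter level for 0 of 4, and leukocyte markers for 1 of 6, Csf1r. The part of all these markers in the differences of Foxo1 and Fbxo32 was not tested. In total RNA of a whole culture, fewer cells of a type and less RNA per cell cannot be told apart.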

How the data were processed

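Per the submitters' processing notes and the design text, the authors' deposited intensity values are MAS5 probe-set signals on a linear scale. A single stain is described, so 1 channel was used, although the labels list 2 dyes. Trimmed by 2%, the mean signal of an array was 500.1 to 500.2. Here that mean was made equal on all arrays, signals under 1 were set to 1, and log2 was taken. Control probe sets (64) were removed. Probe sets went into the test where 4 or more of the 20 arrays were at or above their own 40th percentile, so 14379 were tested and 8247 were not. limma 3.58.1 in R 4.3.3 fitted the 5 groups together (lmFit, eBayes with a trend on intensity; residual degrees of freedom 15, prior 5.33). All adjusted p-values are two-sided, by Benjamini-Hochberg within each comparison over every tested probe set. The number of arrays limits the precision. Groups came from the titles, of which 1 has a misspelt unit.

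Symbols came from the platform annotation: 20380 probe sets had 1 symbol, 691 several and 1606 none, and the last kinds are unnamed here. It names no build, so no probe set is placed on the genome. Promoters came from RefSeq, assembly GRCm38.p6. The genes, pathway lists and alternatives were chosen with earlier results of these data known. Named beside the 8 genes are, from each list, up to 4 called at 1000 µM and up to 3 called at 100 µM with the smallest adjusted p, or the 2 brightest where none was called. Differences between probe sets of one gene were adjusted over all such pairs of all genes, where the design had planned the pairs of these genes only. Alternatives were median centring, quantile normalization, an offset of 32 in place of the floor, no filter and a stricter one, no intensity trend, only the groups compared, array weights, the replicate number as a block, replicates 2 to 4 alone, each array left out in turn, the crossed rule of the design text and, added after the data were seen, a term for the arrays called replicate 1. The fit was tested on simulated data.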

Additional observations from a re-analysis of the deposited data

Results flagged for a closer look

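In 7 of 65 groups of 4 arrays, 1 array lay apart from the other 3 by more than Dixon's criterion allows at the 95% level; chance alone gives about 1 in 20 groups. All 7 fall on 3 arrays called replicate 1: 2 on the untreated one, 2 at 100 µM and 3 at 1000 µM.

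At 100 µM, replicate 1 read 663.2 on Foxo3 1434831_a_at where the next array read 363.4, and 5089.3 on Ctsl 1451310_a_at where the next read 6632.6. At 1000 µM, replicate 1 read 124.5 on Fbxo32 1417522_at (next array 174.9), 544.4 on Gabarapl1 1416418_at (787.1) and 1579.9 on Map1lc3b 1415928_a_at (2148.9). The untreated replicate 1 read 1483.9 on Map1lc3b 1415929_at (next array 1945.5) and 1759.8 on Map1lc3b 1415930_a_at (2812.3). The arrays were kept in the fits.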

How the results depend on the processing

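The count of genes lower at 1000 than at 100 µM stayed at 2 in every alternative, and without any single array (range 2 to 2). Against untreated at 1000 µM the count of 2 became 1 with median centring, 1 with quantile normalization, 1 with only the groups compared and 1 under the crossed rule, and, counted in either direction, 4 with replicates 2 to 4 alone and 4 with array weights, in both with Foxo3 lower and Map1lc3b higher added; it was 3, with Map1lc3b 1415930_a_at higher, with the replicate block (0.31, adjusted p = 0.0153) and with the added term for the arrays called replicate 1 (adjusted p = 0.00941). Leaving out 1 array gave 1 to 2, with 1 without untreated replicate 3, 1000 µM replicate 1 or 1000 µM replicate 4. At 100 µM the count of 0 became 1 with the replicate block, with replicates 2 to 4, with array weights and with that term. Over the 5 doses the F-test's 2 became 3 with the replicate block (Gabarapl1 1416419_s_at, adjusted p = 0.00756), 5 with replicates 2 to 4, 4 with array weights and 4 with that term. The cause was not tested. Deviations of arrays with the same number correlated at 0.462 to 0.514 for number 1 but at 0.010 to 0.261 for numbers 2 to 4, so the numbers were not taken to pair the arrays. With the replicate block, Gabarapl1 1416419_s_at (adjusted p = 0.0113) and 1416418_at (0.0434) and Fbxo32 1417522_at (0.0497) also passed at 100 µM, and Foxo3 1434832_at between the top doses (0.0446). Of 1625 recomputed values of single probe sets, 1477 kept their direction and side of the threshold, 40 lost and 38 gained a call, and 70 changed sign, 0 of them called in either fit. With array weights 29.7% of all probe sets were called at 1000 µM, and with replicates 2 to 4 alone 17.6%, against 10.9%. Probe sets below the filter level, such as that of Foxo4, are limited by signal over background.

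Each sign change concerned an uncalled log2 difference, given here against untreated unless stated. With median centring Gabarapl1 1416419_s_at was 0.044 at 1 µM, Map1lc3b 1415928_a_at 0.083 and Ankrd1 0.078 at 1000 µM, and Map1lc3b 1415929_at 0.071 between 1000 and 100 µM. Quantile normalization gave Gabarapl1 1416419_s_at 0.019 at 1 µM, Lamp1 -0.013 at 1000 µM, and Ctsl -0.063 and Map1lc3b 1415928_a_at -0.019 between the top doses. The replicate block gave Foxo1 1416983_s_at -0.023 and Gabarapl1 1416418_at -0.011 at 10 µM. Replicates 2 to 4 gave, at 1 µM, Foxo1 1416982_at 0.026, Fbxo32 1448747_at -0.098, Map1lc3b 1415929_at -0.007 and 1415930_a_at -0.020, and at 10 µM Foxo1 1416982_at 0.026 and 1416983_s_at -0.087. They gave Foxo3 1434831_a_at -0.31 and Map1lc3b 1415928_a_at 0.039 at 100 µM, the latter 0.12 at 1000 µM, and Ctsl -0.036 between the top doses. Array weights gave Fbxo32 1448747_at -0.12 and Map1lc3b 1415929_at -0.004 at 1 µM, and at 10 µM Foxo1 1416982_at 0.007 and 1416983_s_at -0.044, Foxo3 1434831_a_at -0.018 and Gabarapl1 1416418_at -0.022. They gave Foxo3 1434831_a_at -0.25 and Map1lc3b 1415928_a_at 0.021 at 100 µM, the latter 0.096 at 1000 µM, and Ctsl -0.027 between the top doses.

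Without 1 array, values at 1 µM ran from -0.038 to 0.12 for Foxo1 1416983_s_at, -0.18 to 0.016 for Foxo3 1434831_a_at, -0.050 to 0.25 for Fbxo32 1448747_at, -0.098 to 0.070 for Gabarapl1 1416419_s_at, and -0.064 to 0.096 and -0.10 to 0.16 for Map1lc3b 1415929_at and 1415930_a_at. At 10 µM they ran from -0.19 to 0.052 and -0.046 to 0.11 for Foxo1 1416982_at and 1416983_s_at, -0.017 to 0.20 for Foxo3 1434831_a_at, -0.075 to 0.10 and -0.073 to 0.10 for Gabarapl1 1416418_at and 1416419_s_at, and -0.033 to 0.14 for Map1lc3b 1415929_at. At 100 µM Foxo3 1434831_a_at ran from -0.21 to 0.12, Foxo3 1434832_at from -0.001 to 0.20 and Map1lc3b 1415930_a_at from -0.11 to 0.26. At 1000 µM Map1lc3b 1415928_a_at ran from -0.094 to 0.076. Between the top doses the ranges were -0.073 to 0.071 for Ctsl, -0.23 to 0.025 for Gabarapl1 1416418_at, and -0.039 to 0.13 and -0.10 to 0.083 for Map1lc3b 1415928_a_at and 1415929_at.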
